A study of Homo sapiens with 108 samples.

Results

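TNFRSF21, also called death receptor 6, was followed in 4 lymphoma cell lines treated with EPZ6438, an inhibitor of the histone methyltransferase EZH2. It is 1 gene of the 19775 that had a probe set of their own on the arrays, and every probe set that the array's annotation pairs with it was used: 218856_at, designed on transcript NM_014452, and 214581_x_at, designed on BE568134. The gene was chosen by its log2 values on these same arrays, over all lines, doses and days, so its levels and changes are given here as a description and carry no p-value.

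The arrays measured total RNA of WSU-DLCL2, SU-DHL6, Karpas422 and Pfeiffer, which are established non-Hodgkin lymphoma lines grown in culture. Every line received DMSO, the solvent control, or EPZ6438 at a dose called LCC or at 10 times that dose, called 10xLCC, and was sampled after 2, 4 and 6 days. Each of the 36 combinations has 3 arrays, named A, B and C. Per the series description, WSU-DLCL2, SU-DHL6 and Karpas422 carry a Y641 mutation of EZH2 and Pfeiffer does not. Since the DMSO arrays of a line carry that line's own EZH2 allele, genotype and line cannot be told apart. LCC is set for each line. What concentration it stands for is not known here, so equal dose names do not mean equal concentrations in different lines. The labels do not say whether A, B and C are separate cultures, so every p-value below measures only the spread between these samples, which may be technical.

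TNFRSF21 encodes a type I membrane receptor of the tumour necrosis factor receptor superfamily with cysteine-rich repeats outside the cell and a death domain inside. Amyloid precursor protein and its relatives, and the heparan sulfate carrier syndecan-1, have been described as its ligands. The adaptor TRADD binds its death domain, and forced expression of the receptor activates JNK and NF-kB and can lead to apoptosis. In the immune system it is known for restraining T helper cell and B cell responses. EZH2 is the catalytic subunit of PRC2, which places the repressive H3K27 methyl mark, and EPZ6438 blocks that activity.

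The stretch just upstream of the RefSeq start of TNFRSF21 is shown because it is the promoter of the transcript whose level the arrays report. It is the 250 bases before the start on GRCh38.p14, chr6:47309906-47310155, minus strand, written 5′ to 3′ along the gene, with matches to the searched motifs in capitals.
TNFRSF21: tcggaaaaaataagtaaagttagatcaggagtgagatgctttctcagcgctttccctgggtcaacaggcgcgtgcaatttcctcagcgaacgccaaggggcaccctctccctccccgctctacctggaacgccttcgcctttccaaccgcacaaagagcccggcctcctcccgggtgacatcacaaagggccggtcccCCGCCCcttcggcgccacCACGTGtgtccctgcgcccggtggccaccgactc
The stretch holds 20 CG dinucleotides, against a median of 11 over the 35116 RefSeq promoter stretches of that length, and 32.4% of them hold at least as many. Its G and C content is 62%, against a median of 58%. Both strands were searched. GGGCGG, the GC box, matched in its reverse complement CCGCCC at position -52 from the start, as it did somewhere in 42.6% of all the stretches. CACGTG, an E-box that reads the same on both strands, matched at -34, as in 6.34% of all. CCAAT had no match here and matched in 32% of all. The TATA box, searched as TATAAA, had none either, against 10.7% of all, and the cyclic AMP element, searched as TGACGTCA, had none, against 1.65%. The matches do not overlap one another, and a match describes letters only.

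Under DMSO, the 218856_at level of TNFRSF21 was highest in Pfeiffer. Over the 9 DMSO arrays of each line it ran from 6.86 to 8.18 in Pfeiffer (median 7.64), from 4.89 to 5.79 in SU-DHL6 (median 5.6), from 4.63 to 5.63 in Karpas422 (median 5.19) and from 4.56 to 5.44 in WSU-DLCL2 (median 4.95), all on the log2 intensity scale. No DMSO array of Pfeiffer overlapped one of any other line, while the ranges of the other lines overlapped each other. The deposited values carry no detection calls, so levels near 5 cannot be said to lie above background. In these bulk cultures, fewer cells with the transcript and less transcript per cell cannot be told apart.

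By 218856_at, the level in Karpas422 under 10xLCC climbed with every sampling day, and on day 6 its arrays overlapped those of Pfeiffer under 10xLCC. The day 2 arrays read 5.63, 5.4 and 4.97 under DMSO, 5.35, 5.56 and 5.6 under LCC, and 6.09, 6.08 and 6.24 under 10xLCC. On day 4 they read 5.42, 4.63 and 5.08 under DMSO, 5.9, 6.01 and 6.26 under LCC, and 7.95, 7.9 and 7.08 under 10xLCC. On day 6 they read 5.19, 5.39 and 5.05 under DMSO, 6.51, 6.21 and 6.16 under LCC, and 9.07, 9.02 and 9.1 under 10xLCC. All 10xLCC arrays stood above all DMSO and LCC arrays of their day, LCC stood apart from DMSO on days 4 and 6 and overlapped it on day 2, and DMSO arrays of the 3 days overlapped.

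Written as differences of group means from DMSO, 10xLCC in Karpas422 gave 0.81 on day 2, 2.60 on day 4 and 3.85 on day 6 on the log2 scale, each with a standard error of 0.19 from the line's fit (n = 3 per group). As ratios of intensity these are 1.75, 6.06 and 14.5, and since the DMSO readings cannot be said to lie above background, they are not given as folds of the transcript. LCC gave 0.17, 1.01 and 1.08. On day 6 the 10xLCC arrays lay 2.77 ± 0.19 above the LCC arrays. The day 4 value depends most on array C of 10xLCC, the low one, without which it is 2.88. Both doses of a day are set against the same DMSO arrays.

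**Figure D1:**
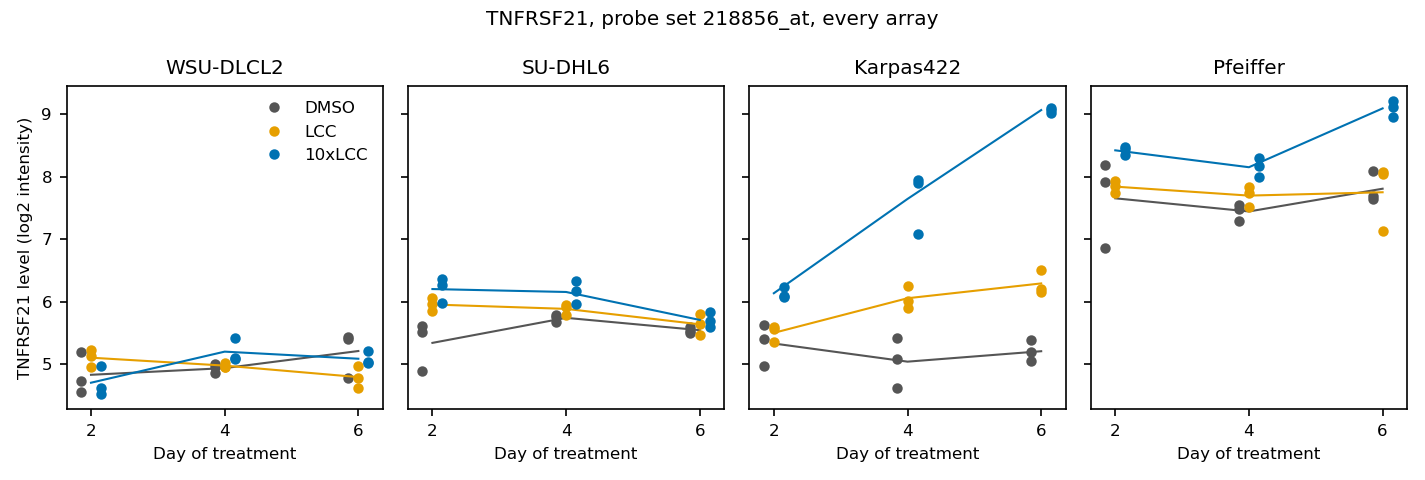
TNFRSF21 level by probe set 218856_at (vertical axis, log2 intensity) against day of treatment, in a panel per cell line; each point is 1 array, lines join group means of 3 arrays, and colours mark DMSO, LCC and 10xLCC. In Karpas422 the 10xLCC arrays climb to between 9.02 and 9.1 on day 6, Pfeiffer starts high and reaches 8.95 to 9.21, and in WSU-DLCL2 both doses overlap DMSO on day 6.

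Pfeiffer, without the Y641 mutation, also had higher readings under 10xLCC, from its higher start. The day 2 arrays read 6.86, 8.18 and 7.92 under DMSO, 7.93, 7.74 and 7.85 under LCC, and 8.48, 8.44 and 8.34 under 10xLCC. On day 4 they read 7.49, 7.29 and 7.55 under DMSO, 7.52, 7.74 and 7.83 under LCC, and 8.29, 7.99 and 8.17 under 10xLCC. On day 6 they read 8.09, 7.69 and 7.64 under DMSO, 8.08, 7.13 and 8.04 under LCC, and 8.95, 9.21 and 9.11 under 10xLCC. On every day the 10xLCC arrays lay above all DMSO and all LCC arrays, and LCC overlapped DMSO.

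The differences from DMSO in Pfeiffer were 0.76, 0.70 and 1.28 for 10xLCC on days 2, 4 and 6, each ± 0.23 (SE, n = 3 per group), which are 1.7-fold, 1.63-fold and 2.44-fold. LCC gave 0.19, 0.25 and -0.05. The day 2 difference rests partly on DMSO array A at 6.86, and is 0.37 without it. Over the whole array that library was also among those farthest from their own group, with a root mean square distance of 0.374 over all genes, while LCC array B of day 6, at 7.13 for TNFRSF21, was the farthest of all arrays at 0.706.

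In SU-DHL6 the 10xLCC difference was largest on day 2 and smaller on days 4 and 6. The day 2 arrays read 4.89, 5.52 and 5.62 under DMSO, 6.06, 5.85 and 5.96 under LCC, and 6.36, 6.27 and 5.98 under 10xLCC. On day 4 they read 5.79, 5.76 and 5.68 under DMSO, 5.79, 5.95 and 5.92 under LCC, and 6.17, 6.33 and 5.97 under 10xLCC. On day 6 they read 5.5, 5.6 and 5.54 under DMSO, 5.8, 5.47 and 5.65 under LCC, and 5.69, 5.84 and 5.6 under 10xLCC. The 10xLCC arrays lay above all DMSO arrays on days 2 and 4 and met them on day 6.

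The 10xLCC differences in SU-DHL6 were 0.86, 0.41 and 0.16 on days 2, 4 and 6, each ± 0.14 (SE, n = 3 per group), and those of LCC were 0.61, 0.14 and 0.09. DMSO array A of day 2, at 4.89, had a distance of 0.468 from its group over all genes, and without it the day 2 differences were 0.63 for 10xLCC and 0.39 for LCC. Within 10xLCC the day 6 arrays lay below the day 2 arrays, with a difference of -0.49 ± 0.14 between the means.

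WSU-DLCL2 had the lowest readings of the 4 lines and no order by dose. The day 2 arrays read 5.2, 4.74 and 4.56 under DMSO, 4.95, 5.14 and 5.23 under LCC, and 4.52, 4.97 and 4.63 under 10xLCC. On day 4 they read 5.01, 4.95 and 4.86 under DMSO, 5.02, 4.96 and 4.96 under LCC, and 5.09, 5.1 and 5.42 under 10xLCC. On day 6 they read 4.79, 5.41 and 5.44 under DMSO, 4.79, 4.97 and 4.63 under LCC, and 5.02, 5.21 and 5.04 under 10xLCC. The 10xLCC arrays overlapped the DMSO arrays on days 2 and 6 and lay just above them on day 4, and on day 6 they lay above the LCC arrays. The differences of 10xLCC from DMSO were -0.13, 0.27 and -0.12, each ± 0.16 (SE, n = 3 per group), and those of LCC were 0.27, 0.04 and -0.41.

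Ordered by mean, the 36 groups spanned 4.38 on the log2 scale. Pfeiffer and Karpas422 under 10xLCC on day 6 headed the order at 9.09 ± 0.13 and 9.06 ± 0.04 (SD, n = 3), and their arrays overlapped. Pfeiffer under 10xLCC followed at 8.42 ± 0.07 on day 2 and 8.15 ± 0.15 on day 4. The other Pfeiffer groups and Karpas422 under 10xLCC on day 4, at 7.64 ± 0.49, came next and overlapped, down to Pfeiffer DMSO of day 4 at 7.45 ± 0.14. Below it a gap led to Karpas422 under LCC on day 6 at 6.29 ± 0.19. From there to the lowest group, WSU-DLCL2 under 10xLCC on day 2 at 4.71 ± 0.23, each group overlapped the next. Of the 35 pairs of neighbours, 31 overlapped in their arrays and 4 did not.

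The other probe set, 214581_x_at, read over a narrower range, from 3.52 to 6.62 over all arrays. Its 10xLCC differences in Karpas422 were 0.42, 1.44 and 1.76 on days 2, 4 and 6, each ± 0.13 (SE), and within each day all 10xLCC arrays lay above all DMSO arrays. Its LCC differences there were -0.06, 0.42 and 0.41, with LCC and DMSO overlapping on days 2 and 6. By this probe set the Karpas422 10xLCC arrays of day 6 (5.5 to 5.79) overlapped those of day 4 (5.15 to 5.53). They lay below the Pfeiffer 10xLCC arrays of day 6 (5.96 to 6.62). In Pfeiffer the 10xLCC differences were 0.69, 0.56 and 1.06, each ± 0.19, with overlap on day 4. In SU-DHL6 they were 0.52, 0.22 and -0.14, each ± 0.12, so the day 6 difference changed sign between the probe sets. In WSU-DLCL2 they were -0.28, 0.09 and 0.05, each ± 0.16. Over all arrays the readings of both probe sets correlated at r = 0.96, and at 0.95 over the 36 group means after each line's mean was taken off. The points share arrays and normalization, and these are descriptions.

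**Figure D2:**
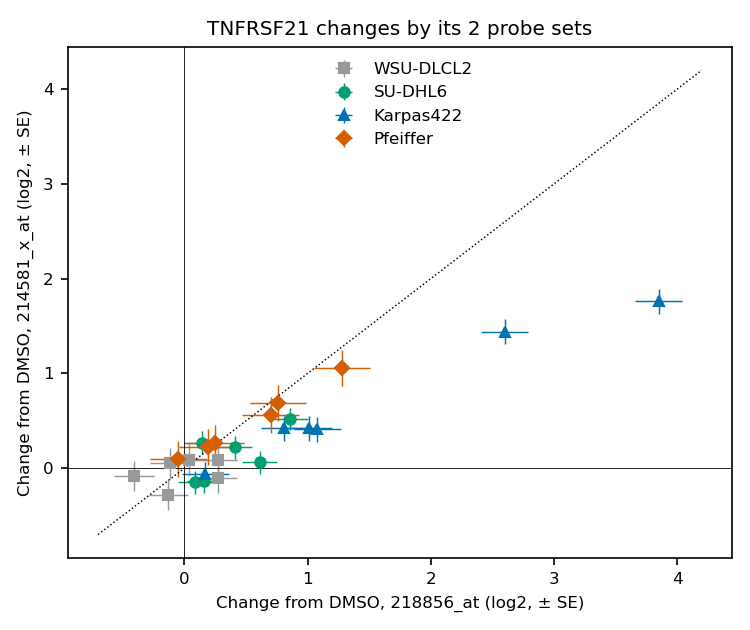
Change of TNFRSF21 from DMSO (log2, with SE) by 218856_at on the horizontal axis and by 214581_x_at on the vertical axis; each symbol is a line, dose and day, with 6 per line, and the dotted line marks equal change. The Karpas422 10xLCC points of days 4 and 6, at 2.60 and 3.85 against 1.44 and 1.76, lie under the dotted line, and the Pfeiffer point of day 6, at 1.28 against 1.06, lies near it.

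Cell type markers and RNA quality were read on the same arrays. All 5 B cell markers of the list had a mean of at least 8 in every line (8.35 to 13.84), while none of the T cell or myeloid markers did, apart from CD3G at 8.58 in Karpas422; COL1A1 had means of 8.63 to 8.8 in the Y641 lines and read 9.02 under DMSO on day 6 in Pfeiffer, where EPCAM had a mean of 11.81. Under 10xLCC on day 6, limma called 4 of the 5 B cell markers higher and 0 lower in Karpas422 (median change 0.57) and in WSU-DLCL2 (0.26), and 2 higher in SU-DHL6 (0.20). Of the 4 T cell markers, 2 were called lower in Karpas422 (median -0.33), among them CD3G by 1.12, 3 in SU-DHL6 (median -0.35) and 0 in WSU-DLCL2. Of the 5 myeloid markers 1 was called lower in SU-DHL6, and of the 6 epithelial, stromal and endothelial markers 1 was called lower in SU-DHL6 and 1 higher in WSU-DLCL2. In Pfeiffer 0 markers were called, beside 0.222% of all genes. Of all genes tested, 18.4% were called higher and 19.2% lower in Karpas422, 19.8% and 26.7% in SU-DHL6, and 17% and 19.2% in WSU-DLCL2. The part of these markers in the TNFRSF21 values and in the gene lists below was not tested. The signal of actin's 3′ probes over its 5′ probes, as a log2 ratio, which rises when RNA is broken, was 1.25 ± 0.22 under DMSO, 2.37 ± 1.22 under LCC and 2.25 ± 0.51 under 10xLCC in Karpas422 on day 6 (SD, n = 3). In that line it was -0.03, 0.25 and 0.16 on day 2 and -0.01, 0.01 and 0.03 on day 4. With the ratio as a covariate the day 6 difference of TNFRSF21 there was 3.99. The part of RNA quality in the TNFRSF21 values was not tested further. In SU-DHL6 on day 6 the ratio was -0.18 under DMSO and 0.34 under 10xLCC, and in WSU-DLCL2 and Pfeiffer the group means stayed between -0.14 and -0.02 that day. With the ratio as a covariate, 0 B cell and 0 T cell markers were called in SU-DHL6. Centring each array on its bright genes gave 5 B cell markers higher and 0 T cell markers called in that line.

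The genes around the receptor were followed through 81 genes in lists of ligands, receptors, adaptors, caspases, NF-kB, PRC2 and other receptors of the superfamily, of which 73 were tested in each line. They were compared between 10xLCC and DMSO on day 6 with limma, and a gene was called at a Benjamini-Hochberg adjusted p below 0.05 over all genes tested. Karpas422 had 22 of the 73 higher and 13 lower, beside 37.6% of all genes tested called in either direction. SU-DHL6 had 17 higher and 18 lower, beside 46.5% of all, and WSU-DLCL2 had 20 higher and 25 lower, beside 36.1%. In Pfeiffer 0 of the 73 were called by limma (4 had an unadjusted p below 0.05), beside 0.222% of all genes. The median change over all genes was -0.03 in Karpas422, -0.11 in SU-DHL6, 0.02 in WSU-DLCL2 and 0.02 in Pfeiffer. Centring each array on its bright genes moved these medians to 0.20, 0.05, 0.17 and 0. It moved the share of higher genes among the calls from 48.8% to 72.9% in Karpas422, from 42.5% to 64.2% in SU-DHL6 and from 47% to 67.5% in WSU-DLCL2. In Pfeiffer it moved the calls over all genes from 31 higher and 11 lower to 307 and 142. Leaving out LCC array B of day 6 there gave 340 and 110, so the small share called in Pfeiffer depends on the scaling and on that array. In SU-DHL6, with the actin ratio as a covariate, 6 of the 73 were called in place of 35, so every SU-DHL6 call below was made beside a ratio that differed between the groups.

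Among the ligands and the proteases that cut the receptor or its ligands, 7 genes were tested. SDC1, syndecan-1, fell in Karpas422 from 8.97 ± 0.06 to 7.27 ± 0.08 (SD, n = 3), by 1.70 ± 0.14 (SE, limma adjusted p = 2.2e-10), and both of its probe sets went down. It had fallen there by 0.67 ± 0.14 on day 4 (adjusted p = 0.00068) and, under LCC, by 0.85 ± 0.14 on day 6 (adjusted p = 6.1e-05). Its group means in Karpas422 stood between 8.64 and 8.97 under DMSO, and the changes in WSU-DLCL2, SU-DHL6 and Pfeiffer were 0.14, 0.03 and -0.24, none of them called.

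APP, the amyloid precursor, was called in SU-DHL6 at 0.30 ± 0.12 (limma adjusted p = 0.039), a call that ended when any 1 of its 6 arrays but 10xLCC B was left out (adjusted p up to 0.21) and whose sign turned with the actin covariate (-0.16). In Karpas422 APP was not called, although centring (0.51, adjusted p = 0.014) or leaving out DMSO A (0.38, adjusted p = 0.045) made it a call. APLP2, a relative of APP, rose by 0.43 ± 0.09 in WSU-DLCL2 (adjusted p = 0.00019), where 7 of its 8 probe sets went up. In SU-DHL6 APLP2 was not called, but the mean of its probe sets was called lower (-0.53, limma adjusted p = 4.5e-06). Centring instead called it higher in SU-DHL6 (0.39, adjusted p = 0.00069) and in Karpas422 (0.27, adjusted p = 0.0036). ADAM10, a membrane protease that sheds such ectodomains, was called higher by 0.75 in Karpas422, 0.36 in SU-DHL6 and 0.25 in WSU-DLCL2. Its probe sets disagreed: the mean of its 3 probe sets gave 0.21, -0.37 and -0.17, and in WSU-DLCL2 the call also ended without any 1 of its arrays but 10xLCC B (adjusted p up to 0.16). APLP1, BACE1 and MMP14 were called in no line, although centring made APLP1 a call in Karpas422, SU-DHL6 and WSU-DLCL2 (0.51, 0.42 and 0.48, adjusted p = 0.012, 0.0091 and 0.018), leaving out DMSO A or 10xLCC C made it one in WSU-DLCL2 (adjusted p = 0.048 and 0.039), and the actin covariate made MMP14 one in Karpas422 (-0.34, adjusted p = 0.015). Karpas422 had 1 of the 7 called higher and 1 lower (median 0.11), beside 18.4% higher and 19.2% lower of all genes. SU-DHL6 had 2 higher and 0 lower (median 0.23), beside 19.8% and 26.7%, and WSU-DLCL2 had 2 and 0 (median 0.14), beside 17% and 19.2%. With the mean of probe sets the counts were 0 and 1, 1 and 2, and 1 and 0 (medians 0.02, -0.11 and -0.01), and with centring 4 and 1, 4 and 0, and 4 and 0. With the actin covariate SU-DHL6 had 0 and 0 (median -0.16).

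Among the 7 other receptors with a death domain, each read by its probe set with the highest mean, only TNFRSF10A was called in more than 1 line. This receptor for TRAIL fell by 1.01 ± 0.09 in Karpas422, 0.67 ± 0.10 in SU-DHL6 and 0.59 ± 0.09 in WSU-DLCL2 (limma adjusted p = 3.6e-10, 2e-06 and 9e-06), with its 3 probe sets all lower. FAS, the receptor for FAS ligand, fell by 0.78 ± 0.18 in WSU-DLCL2 (adjusted p = 0.0012), and its changes of -0.65 in Karpas422 (adjusted p = 0.065, and 0.03 without 10xLCC array A) and 0.09 in SU-DHL6 were not called; with the actin covariate the SU-DHL6 value became 1.37 (adjusted p = 0.033). TNFRSF1A, a receptor for TNF, rose by 0.44 in WSU-DLCL2. TNFRSF10B, another TRAIL receptor, was called higher in SU-DHL6 at 0.78 ± 0.15 (adjusted p = 6.9e-05), but by 1 of its 4 probe sets, and the mean of the 4 was -0.02. That mean was called lower in Karpas422 (-0.29, limma adjusted p = 6e-04) and WSU-DLCL2 (-0.17, adjusted p = 0.031). In WSU-DLCL2 centring instead called TNFRSF10B higher (0.35, adjusted p = 0.0019). The mean of the FAS probe sets was called lower in Karpas422 (-0.52, adjusted p = 0.048). TNFRSF25, NGFR and EDAR were called in no line. NGFR became a call in WSU-DLCL2 with the mean of probe sets, centring, the actin covariate, or without DMSO A or 10xLCC C (0.22 to 0.38, adjusted p = 0.0047 to 0.04), and EDAR in SU-DHL6 without 10xLCC B (-0.31, adjusted p = 0.047). Of the 7, Karpas422 had 0 called higher and 1 lower (median -0.16), beside 18.4% and 19.2% of all genes. SU-DHL6 had 1 and 1 (median -0.06), beside 19.8% and 26.7%, and WSU-DLCL2 had 1 and 2 (median 0.19), beside 17% and 19.2%. By this choice of probe set the counts are small and near the shares of all genes. With the mean of probe sets Karpas422 had 0 and 3, beside 17.5% and 19.5% of all genes. SU-DHL6 then had 0 and 1, beside 18.3% and 28.2%, and WSU-DLCL2 had 2 and 3, beside 16.2% and 20.2%. Centring turned the sign of the median in Karpas422, to 0.07, and in SU-DHL6, to 0.10.

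Among 20 other tested receptors of the superfamily, Karpas422 had 2 higher and 2 lower, beside 18.4% higher and 19.2% lower of all genes. SU-DHL6 had 2 higher and 3 lower, beside 19.8% and 26.7%, and WSU-DLCL2 had 8 higher and 2 lower, beside 17% and 19.2%. With centring these counts were 4 and 0, 5 and 1, and 10 and 0. CD40, the costimulatory receptor of B cells, rose in Karpas422 from 8.43 ± 0.12 to 9.81 ± 0.14, by 1.38 ± 0.12 (limma adjusted p = 2.5e-10), and in WSU-DLCL2 by 0.43 ± 0.06 (adjusted p = 2.3e-06). In SU-DHL6 CD40 was not called, but the mean of probe sets (0.46, adjusted p = 5.8e-05), centring (0.27, adjusted p = 0.0077) or repeated quantile normalization (0.21, adjusted p = 0.032) made it a call. TNFRSF10D, a decoy receptor for TRAIL, rose by 1.82 ± 0.13 in WSU-DLCL2 (adjusted p = 1.9e-11) and 0.89 ± 0.18 in SU-DHL6 (adjusted p = 2e-04, by 1 of 2 probe sets), against 0.15 in Karpas422. Centring made TNFRSF10D a call in Karpas422 as well (0.37, limma adjusted p = 0.025). TNFRSF18 rose by 1.57 ± 0.16 in WSU-DLCL2 (adjusted p = 9.3e-09), where TNFRSF21 did not differ beyond its spread.

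Of the 13 tested adaptors and kinases below the receptor, Karpas422 had 7 higher and 2 lower (median 0.36), beside 18.4% and 19.2% of all genes. SU-DHL6 also had 7 and 2 (median 0.35), beside 19.8% and 26.7%, and WSU-DLCL2 had 6 and 2 (median 0.21), beside 17% and 19.2%. The SU-DHL6 counts became 1 and 0 with the actin covariate, and 5 and 3 with the mean of probe sets (median 0.09). TRADD, which binds the death domain, rose in Karpas422 from 9.61 ± 0.02 to 10.41 ± 0.06, by 0.80 ± 0.10 (limma adjusted p = 2.1e-07). It rose by 0.59 ± 0.09 in SU-DHL6, with 2 of 3 probe sets up, and 0.48 ± 0.06 in WSU-DLCL2 (adjusted p = 2.7e-06 and 7.3e-07), and on day 4 by 0.49 in Karpas422, 0.42 in SU-DHL6 and 0.54 in WSU-DLCL2 (adjusted p = 0.00036, 0.00085 and 1.4e-07). MAPK10, a JNK, rose by 0.49, 0.75 and 0.87 in those lines, with 3 of 3 probe sets up in each (adjusted p = 6.7e-05, 1e-06 and 1.7e-10). MAP3K5, a kinase upstream of JNK, rose by 1.21 in SU-DHL6, by 0.92 in WSU-DLCL2 and by 0.44 in Karpas422, where the call ended without DMSO array A or 10xLCC array B (adjusted p = 0.09 and 0.1) and with the actin covariate (0.29, adjusted p = 0.19). RIPK3, a kinase of necroptosis, rose by 1.03 ± 0.15 in SU-DHL6 and 0.63 ± 0.13 in Karpas422.

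Of the 10 tested caspases and genes of the mitochondrial arm, Karpas422 had 1 higher and 5 lower (median -0.29), beside 18.4% and 19.2% of all genes. SU-DHL6 had 0 and 3 (median -0.15), beside 19.8% and 26.7%, and WSU-DLCL2 had 1 and 7 (median -0.41), beside 17% and 19.2%. CASP6, an effector caspase, fell by 1.83 ± 0.09 in WSU-DLCL2 and 1.26 ± 0.10 in Karpas422 (limma adjusted p = 2.8e-14 and 6.7e-11). BID, which links caspase activity to mitochondria, fell by 1.37 ± 0.16 in Karpas422, 1.39 ± 0.12 in SU-DHL6 and 0.77 ± 0.08 in WSU-DLCL2, with all 3 probe sets lower. BAX fell by 0.68 ± 0.11 in WSU-DLCL2 and by 1.64 ± 0.40 in Karpas422, where its 10xLCC arrays had an SD of 1.03 and the call ended with the actin covariate (-0.75, adjusted p = 0.098). CYCS, cytochrome c, was called lower by 0.55, 0.56 and 0.43 in those lines, although the mean of its 3 probe sets gave 0.08 in SU-DHL6 and ended the call in WSU-DLCL2 (-0.22, adjusted p = 0.052). With centring the list had 3 higher and 4 lower in Karpas422 (median -0.06), 2 and 2 in SU-DHL6 (median 0.01) and 3 and 6 in WSU-DLCL2 (median -0.25). With the actin covariate Karpas422 had 1 and 3 (median -0.12) and SU-DHL6 0 and 1.

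The NF-kB list went in different directions in different lines. Of 12 tested targets and subunits, Karpas422 had 10 higher and 1 lower (median 0.71), beside 18.4% and 19.2% of all genes. SU-DHL6 had 4 and 6 (median -0.24), beside 19.8% and 26.7%, and WSU-DLCL2 had 1 and 9 (median -0.77), beside 17% and 19.2%. With centring these counts were 11 and 1, 4 and 5, and 1 and 8, and with the actin covariate 10 and 1, 0 and 1, and 1 and 8. In Karpas422 the subunits RELB and REL rose by 1.26 ± 0.19 and 1.12 ± 0.12 (limma adjusted p = 3.5e-06 and 1.9e-08), TNFAIP3, a feedback inhibitor, by 0.87 ± 0.16 and NFKBIA, which holds NF-kB in the cytoplasm, by 0.67 ± 0.11, the last by 1 of its 2 probe sets. The chemokine gene CCL4 rose there by 2.24 ± 0.16 on day 6 (adjusted p = 2.1e-11) after having been lower by 0.68 ± 0.16 on day 4 (adjusted p = 0.0025). In WSU-DLCL2 BCL2A1, an anti-apoptotic gene, fell by 2.88 ± 0.15, TNFAIP3 by 1.40 ± 0.09 and NFKBIA by 0.93 ± 0.09 (adjusted p = 9e-14, 5e-12 and 3.4e-09). ICAM1, an adhesion receptor, fell by 0.65 in Karpas422, with 2 of 3 probe sets lower and the call ended by their mean (-0.27, adjusted p = 0.077), by 1.33 in SU-DHL6 and by 1.20 in WSU-DLCL2. On day 4, 5 of the 12 had risen and 1 had fallen in Karpas422, beside 10.8% higher and 15.2% lower of all genes.

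**Figure D3:**
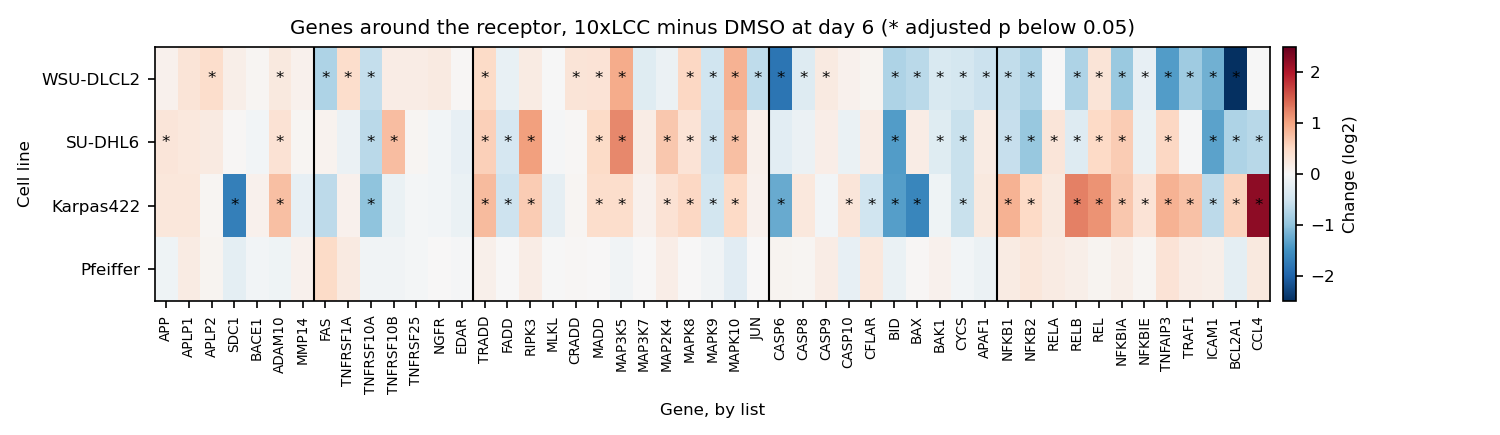
Change at 10xLCC from DMSO on day 6 (colour, log2; red higher, blue lower) of the ligand, death domain receptor, adaptor, caspase and NF-kB genes, from left to right between the black lines, in the 4 cell lines (rows); asterisks mark a limma adjusted p below 0.05. The Karpas422 row holds SDC1 at -1.70 and CCL4 at 2.24, the WSU-DLCL2 row BCL2A1 at -2.88, beyond the end of the colour scale, and the Pfeiffer row no asterisk.

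Of the PRC2 genes, EZH2 itself fell by 0.51 ± 0.07 in Karpas422, 0.26 ± 0.09 in SU-DHL6 and 0.30 ± 0.10 in WSU-DLCL2 (limma adjusted p = 2.5e-06, 0.026 and 0.023). The calls in WSU-DLCL2 and SU-DHL6 ended with centring (adjusted p = 0.11 and 0.35) and without single arrays. These were DMSO B or 10xLCC B in WSU-DLCL2 (adjusted p = 0.14 and 0.086), and DMSO B, DMSO C, 10xLCC B or 10xLCC C in SU-DHL6 (adjusted p up to 0.17). EZH1, its paralogue, was called higher by 0.51, 1.35 and 0.76, with 3 of its 5 probe sets up in each line, and in Karpas422 the mean of the 5 gave 0.09 and ended the call (adjusted p = 0.36). EED and SUZ12, each by its probe set with the highest mean, were called lower in SU-DHL6 and WSU-DLCL2 and not called in Karpas422. The mean of the SUZ12 probe sets was called lower in Karpas422 (-0.58, limma adjusted p = 0.00022) and not called in SU-DHL6 (-0.02, adjusted p = 0.86). The list of 4 had 1 higher and 1 lower in Karpas422 and 1 and 3 in SU-DHL6 and in WSU-DLCL2. All genes had 18.4% and 19.2%, 19.8% and 26.7%, and 17% and 19.2%. With centring SU-DHL6 and WSU-DLCL2 had 1 and 2, and with the actin covariate SU-DHL6 had 1 and 0.

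The genes next to TNFRSF21 on chromosome 6 were read on the same arrays. Of the 5 annotated coding genes on each side in RefSeq (GRCh38.p14), 8 were tested in WSU-DLCL2, SU-DHL6 and Pfeiffer and 7 in Karpas422. In Karpas422 on day 6 under 10xLCC, limma called 0 of the 7, beside 37.6% of all genes, and 0 of the 7 had an unadjusted p below 0.05. The immediate neighbours ADGRF1 and CD2AP stood there at 0.04 ± 0.14 and -0.01 ± 0.15, beside 3.85 ± 0.19 for TNFRSF21. ADGRF4 and MMUT were lower in WSU-DLCL2, by 0.27 and 0.40, and MEP1A and CD2AP in SU-DHL6, by 0.45 and 0.40. These are 2 of 8 in each line, beside 36.1% of all genes called in WSU-DLCL2 and 46.5% in SU-DHL6. The call of MMUT ended without 10xLCC B, that of MEP1A without DMSO B, DMSO C or 10xLCC A, and that of ADGRF4 without any 1 of its arrays but DMSO B and 10xLCC C.

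The genes whose 36 group means ran most like those of TNFRSF21 were ranked by Pearson's r after each line's own mean was taken off, among 18686 genes. Taken so, TNFRSF21 ran from -1.21 to 2.81 in Karpas422 and from -0.54 to 1.11 in Pfeiffer. It ran from -0.46 to 0.41 in SU-DHL6 and from -0.28 to 0.22 in WSU-DLCL2, so the Karpas422 points weigh most in r. The 10 most alike were H2BC4 (0.89), SLC2A5 (0.88), TMEM71 (0.87), EXOC1 (0.86), H1-2 (0.85), APOL3 (0.85), GADD45A (0.85), GAB2 (0.84), F13A1 (0.84) and ZNF595 (0.84), and the median gene had r = -0.05. H2BC4 and H1-2 are histone genes, SLC2A5 is the fructose transporter, GADD45A a stress-induced growth arrest gene and F13A1 a subunit of coagulation factor XIII. Their changes under 10xLCC on day 6 in Karpas422 ran from 0.82 for APOL3 to 4.10 for ZNF595. In Pfeiffer, where TNFRSF21 differed by 1.28, they ran from -0.07 for SLC2A5 to 0.56 for F13A1. In SU-DHL6 they ran from -0.24 to 0.72 and in WSU-DLCL2 from -0.30 to 1.07. By Spearman's correlation 2 of the 10 stayed among the 10 most alike, and with the 3 Y641 lines alone 6 did.

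Running most opposite were ETV5 (-0.85), SDC1 (-0.82) and ANKLE1 (-0.82), whose 10xLCC differences from DMSO in Karpas422 on day 6 were -2.15, -1.70 and -2.62. In that line the mean of SDC1 went 8.77, 7.97 and 7.27 on days 2, 4 and 6 of 10xLCC while that of TNFRSF21 went 6.14, 7.64 and 9.06. Without taking off the line means, CSTA and CRYM (0.93 each), HLA-F and MORC3 (0.92 each) and SLC25A18 (0.91) ran most alike. These were chosen for their r over points that share lines and arrays, so no test goes with them.

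**Figure D4:**
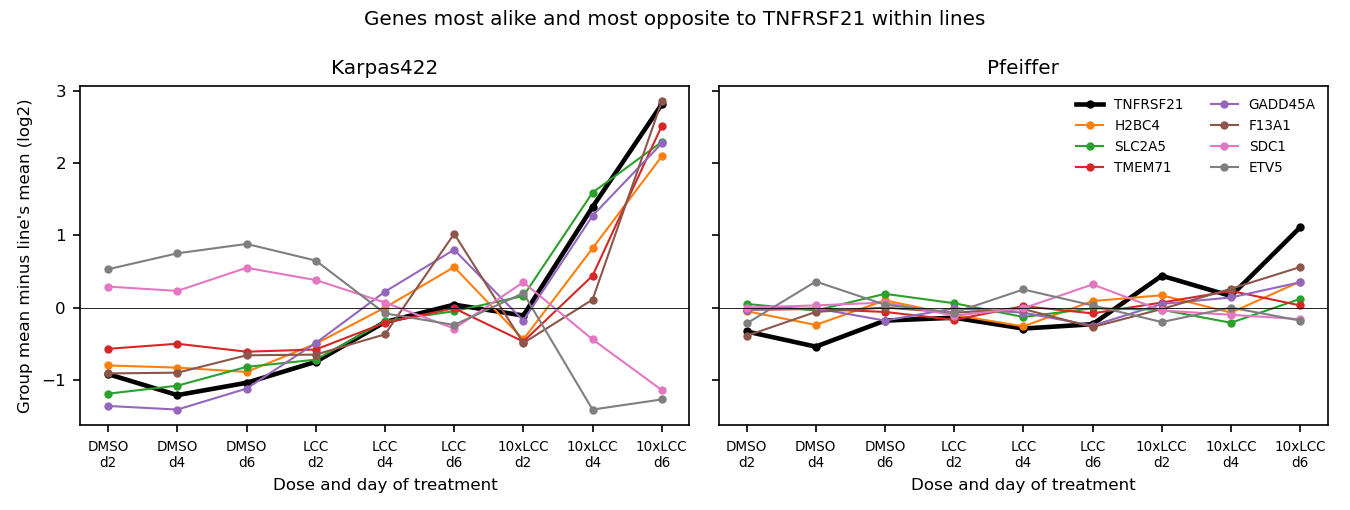
Group mean minus the line's mean over its 9 groups (vertical axis, log2) by dose and day in Karpas422 and Pfeiffer, for TNFRSF21 (thick black), 5 of the 10 most alike genes and the opposite genes SDC1 and ETV5. In Karpas422 TNFRSF21 goes from -1.04 under DMSO on day 6 to 2.81 under 10xLCC, with SDC1 going from 0.55 to -1.14, while in Pfeiffer the other genes lie closer to 0 than TNFRSF21 under 10xLCC on day 6.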

How the data were processed

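The deposited values are linear intensities per probe set that, per the submitters' processing notes, the authors made with GCRMA, a background correction and summary by probe sequence (version not given in the sources used here). Such a correction can change dim readings most; its effect on these values was not tested. Of 54675 probe sets, 41097 name 1 gene in the platform annotation; for a gene with several, the one with the highest mean over the 108 arrays stood for it. Intensities were taken to log2 with no pseudocount. Genes at 4 or more on 3 of a line's 27 arrays were fitted per line with limma 3.58.1 in R 4.3.3 (9 groups, 3 arrays each), with Benjamini-Hochberg adjustment over all genes tested; the script was tested on simulated data. TNFRSF21, its lists and motifs were chosen with earlier results of these data known. Named genes are TNFRSF21, all ligand and death domain receptor genes, called members of the other lists with the largest changes (up to 4 each), neighbours and the most alike genes; RELB and REL were added after their values were seen. Genes without a probe set of their own, RIPK1 and BIRC3 among them, were not analysed here. Alternatives were other filters, scalings, probe set rules, pseudocounts, fits and arrays left out. Replicate letters were used to pair samples only in the replicate block alternative. In no line and day did all 3 correlations of deviations between DMSO and 10xLCC pass 0.1. Single ones reached 0.46 (WSU-DLCL2, day 4), so whether the letters pair samples stays unknown.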

Additional observations from a re-analysis of the deposited data

Results flagged for a closer look

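Among the named genes, 8 had all 3 arrays under 10xLCC on day 6 above the DMSO arrays in 1 line and below them in another. How many of all genes tested did so was not counted, and many named genes were picked for large changes. The count of 8 is therefore no result about these genes. The difference between the lines was not tested for any of them. The difference of the changes, on the log2 scale, was 3.44 for BCL2A1 (0.56 in Karpas422, -2.88 in WSU-DLCL2), 2.94 for CCL4 (2.24 in Karpas422, -0.70 in SU-DHL6) and 2.27 for TNFAIP3 (0.87 in Karpas422, -1.40 in WSU-DLCL2). It was 1.61 for NFKBIA (0.67 in Karpas422, -0.93 in WSU-DLCL2), 1.44 for TNFRSF4 (0.95 in WSU-DLCL2, -0.49 in SU-DHL6) and 1.25 for FAS (0.47 in Pfeiffer, -0.78 in WSU-DLCL2). It was 0.94 for TNFRSF10B (0.78 in SU-DHL6, -0.16 in Karpas422) and 0.85 for ADAM10 (0.75 in Karpas422, -0.11 in Pfeiffer). BCL2A1 read 3.76 under DMSO in Karpas422, near the lowest readings, and its call there ended when DMSO B, DMSO C, 10xLCC A or 10xLCC B was left out (limma adjusted p up to 0.2).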

How the results depend on the processing

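The 10xLCC differences of TNFRSF21 in Karpas422 and Pfeiffer kept their sign under every alternative run. In Karpas422 the mean of both probe sets gave 2.02 on day 4 and 2.81 on day 6, a pseudocount of 16 gave 2.14 and 3.38, and 214581_x_at alone gave 0.42, 1.44 and 1.76 on days 2, 4 and 6. In SU-DHL6 a pseudocount of 16 gave 0.66 on day 2, the actin covariate 0.5 on day 6, and 214581_x_at alone 0.52, 0.22 and -0.14. Leaving out 1 array at a time gave 0.63 to 1 on day 2 in SU-DHL6, 2.39 to 2.88 on day 4 and 3.77 to 3.94 on day 6 in Karpas422, 0.37 to 1.03 on day 2 in Pfeiffer and -0.33 to 0 on day 6 in WSU-DLCL2. With a filter at log2 6, TNFRSF21 dropped out of the WSU-DLCL2 fit and has no value there.

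The 42 genes called in Pfeiffer on day 6 became 449 with centring, 440 with repeated quantile normalization, 90 with both groups fitted alone, and 12 to 450 with 1 array left out, the highest without LCC array B of day 6. The genes called from the lists there became 1, 2 and, with an array left out, 0 to 1. The actin covariate left 1675 genes called in SU-DHL6 and 6 of the lists. Called neighbours in WSU-DLCL2 became 1 with the filter at 6, a pseudocount of 16, a trended robust fit or the actin covariate, and 0 with the mean of probe sets or both groups alone. In SU-DHL6 they became 1 with the filter or pseudocount, 4 with the mean of probe sets, and 0 with centring or the actin covariate, and in Karpas422 1 with the mean of probe sets. With 1 array left out, they ran from 0 to 2 in WSU-DLCL2 and from 1 to 3 in SU-DHL6. The mean of probe sets turned the sign of ADAM10 (-0.17 in WSU-DLCL2, -0.37 in SU-DHL6), APLP2 (-0.53 in SU-DHL6), CYCS (0.08 in SU-DHL6), MMUT (0.3 in Karpas422) and TNFRSF10B (-0.17 in WSU-DLCL2, -0.02 in SU-DHL6), and the actin covariate that of APP (-0.16 in SU-DHL6). Of the genes most alike, 2 and 6 of the 10 stayed under Spearman's correlation and in the Y641 lines. The replicate block moved no count by over 1.5 times (0.81, 2.60 and 3.85 stayed for TNFRSF21 in Karpas422); it ended the call of ADAM10 in WSU-DLCL2 (adjusted p = 0.053) and made that of FAS in Karpas422 (adjusted p = 0.042). Except where named above, the cause of these shifts was not tested.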
